A study of Mus musculus with 8 samples.

Results

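The genes described here are 6 mouse genes for receptors of the Fc part of antibodies or for a receptor subunit: *Fcgr1*, *Fcgr3*, *Fcgr4*, *Fcgr2b*, *Fcer1g* and *Fcgrt*. They were taken by name from a table of 23356 genes, and all 6 passed a filter that asked for 1 FPKM or more in any of the 4 groups, which left 11397 genes. FPKM is the number of sequenced fragments per kilobase of transcript, scaled to the number of fragments mapped in the library, so levels of different genes can be compared per unit of length. The RNA came from bone marrow-derived dendritic cells (BMDCs) of WT mice and of mice lacking *Arhgef2* (GEF-H1-/-, labeled Arhgef2-/-), both on a C57BL/6 background in the labels and C57BL/6N in the methods. Bone marrow had been cultured with GM-CSF and IL-4 for 6 days, after which cells were left untreated or received 100 nM ansamitocin-P3, a drug that destabilizes microtubules, for 5 h. Per the study's methods the mice were 8 to 16 weeks old and sex-matched. GEF-H1-/- mice lack the gene in all cells and not in DCs alone. There were 8 libraries, 2 in each of 4 groups: control WT, treated WT, control GEF-H1-/- and treated GEF-H1-/-. The comparisons ask what the drug did to transcripts of BMDCs and how far that differed without GEF-H1, a guanine nucleotide exchange factor for RhoA that is held on microtubules.

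Fc receptors let cells of the immune system read antibodies. FcγRI, FcγRIII and FcγRIV, from *Fcgr1*, *Fcgr3* and *Fcgr4*, are activating receptors for IgG that signal through ITAM motifs in the common γ chain, the product of *Fcer1g*, which is also a subunit of the IgE receptor FcεRI. FcγRIIB, from *Fcgr2b*, carries an inhibitory ITIM and dampens the activating receptors on the same cell, and the balance of both kinds sets the threshold at which immune complexes activate a DC. FcRn, from *Fcgrt*, belongs structurally to the MHC class I family, pairs with β2-microglobulin and protects IgG from breakdown inside the cell.

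The deposited table holds 1 FPKM per gene and group, which Cuffdiff made from both libraries of the group, with a 95% interval. There is therefore no SD, no n per value and no p-value here, and the intervals of Cuffdiff stand for the error. FPKM does not keep the number of reads, and the methods give a target, so the depth that the libraries reached is unknown here. A change is given as the log2 ratio of FPKM + 1, and its bracketed range sets the lower bound of one group against the upper bound of the other. A gene was counted as higher or lower when this value was over 0.5 or under -0.5, a larger limit of 1 was counted too, and it is said whether the intervals were apart. The targeted gene came first: *Arhgef2* was at 42.3 FPKM without and 45.9 with the drug in WT DCs, against 4.59 and 4.16 in GEF-H1-/- DCs. It was thus far lower in both GEF-H1-/- groups, though not at 0.

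Several of the genes lie close together. On mouse chromosome 1 *Fcgr2b* (mm10 170960559 to 170976071, minus strand), *Fcgr4* (171018926 to 171029761, plus strand), *Fcgr3* (171051169 to 171059403, minus strand) and *Fcer1g* (171229572 to 171234349, minus strand) occupy 273.8 kb in this order. *Fcgr1* is on chromosome 3 (96282909 to 96293969, minus strand) and *Fcgrt* on chromosome 7 (45092993 to 45103822, minus strand). All 6 are protein-coding genes in GENCODE, and all matched a RefSeq promoter window of GRCm38.p6, which covers 300 bases around the start site.

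The 150 bases before the start site are shown for the activating receptors and for the inhibitory *Fcgr2b*, because the values below set these 4 genes against each other. Coordinates are those of GRCm38.p6, each sequence runs 5′ to 3′ toward the start site, and capitals mark GAGGAA or, on the other strand, TTCCTC, a core bound by PU.1, the transcription factor of myeloid cells.
Fcgr1 (chr3:96293970-96294119, minus strand): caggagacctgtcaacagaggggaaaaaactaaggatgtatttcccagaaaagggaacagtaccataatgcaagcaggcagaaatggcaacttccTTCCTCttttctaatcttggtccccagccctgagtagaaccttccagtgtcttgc
Fcgr3 (chr1:171059404-171059553, minus strand): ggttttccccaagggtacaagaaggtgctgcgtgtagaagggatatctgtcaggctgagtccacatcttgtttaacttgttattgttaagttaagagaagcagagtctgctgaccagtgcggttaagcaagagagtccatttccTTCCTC
Fcgr4 (chr1:171018776-171018925, plus strand): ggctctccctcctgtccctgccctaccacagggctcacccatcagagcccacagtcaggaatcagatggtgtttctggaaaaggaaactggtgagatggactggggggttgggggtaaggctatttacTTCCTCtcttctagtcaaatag
Fcgr2b (chr1:170976072-170976221, minus strand): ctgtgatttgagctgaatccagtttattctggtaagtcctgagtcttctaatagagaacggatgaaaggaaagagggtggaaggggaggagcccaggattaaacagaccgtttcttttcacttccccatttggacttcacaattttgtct
Each activating receptor gene held 1 match in its 300 bases, at positions -55 to -50 in *Fcgr1*, -6 to -1 in *Fcgr3* and -22 to -17 in *Fcgr4*, counting the base before the start site as -1. RefSeq gives a second start for *Fcgr3*, from which the same match lies at -15 to -10. *Fcgr2b*, *Fcer1g* and *Fcgrt* held none. This holds for the RefSeq starts only. GENCODE puts the 5′ end of *Fcgr2b* at 170976547 and that of *Fcgr3* at 171064935, both farther upstream, and windows at those ends were not searched. The motif was picked after these sequences had been read, and 28.3% of 32851 promoters of the same length hold it. A match therefore describes the letters, and whether PU.1 binds there was not tested. A STAT motif, TTCNNNGAA, which reads the same on both strands, was found in *Fcgr1* at -109 to -101 and in none of the other 5 windows, against 8.3% of all promoters. An AP-1 motif, TGANTCA, also the same on both strands, was in no window of the 6 genes and in 7.81% of all promoters. The motif of PU.1 overlapped neither of the others in these windows.

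*Fcgr2b* and *Fcgr3* also share coding sequence, which bears on how far their values can be told apart. The longest identical stretch of their protein-coding transcripts in GENCODE has 129 bases, all of them coding, and runs over 2 exons of each gene (GRCm38 minus strand, chr1:170966674-170968081 in *Fcgr2b* and chr1:171054167-171057792 in *Fcgr3*, each with an intron in between).
Fcgr2b and Fcgr3: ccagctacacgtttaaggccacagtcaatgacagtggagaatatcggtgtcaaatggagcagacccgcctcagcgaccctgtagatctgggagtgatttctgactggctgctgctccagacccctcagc
Of the distinct 35-base sequences of *Fcgr3*, 35 bases being the length of a read, 13.1% (213 of 1627) also occur in *Fcgr2b*, and these are 5.84% of the 3648 of *Fcgr2b*. A further part of *Fcgr2b* matches other genes, so that 8.47% of it in all is shared. *Fcgr4* shared 0.491% and *Fcgr1*, *Fcer1g* and *Fcgrt* shared 0%. How reads from shared sequence were divided is not given in the sources used here, and how far this moves the FPKM of *Fcgr2b* and *Fcgr3* was not measured, so both values are uncertain.

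In control WT DCs the γ chain was the most abundant transcript of the 6, followed by *Fcgr3* and *Fcgr2b*, with *Fcgrt* at a middle level and *Fcgr1* and *Fcgr4* low. The levels were 594 FPKM for *Fcer1g*, 281 for *Fcgr3*, 194 for *Fcgr2b*, 50.4 for *Fcgrt*, 9.83 for *Fcgr1* and 8.05 for *Fcgr4*. In the 4 groups, 140 to 153 of the 11397 genes were above *Fcer1g*, while 6306 to 7126 were above *Fcgr1*. The intervals of *Fcgr3* and *Fcgr2b* overlapped in control WT and in both GEF-H1-/- groups, and were apart in treated WT DCs. Those of *Fcgr1* and *Fcgr4* overlapped in control WT and treated GEF-H1-/- DCs, and those of *Fcer1g* and *Fcgr3* in treated WT DCs. All other neighbors in the order had intervals apart. The order was the same in all groups, except that *Fcgr4* stood above *Fcgr1* in treated WT DCs, with intervals apart.

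**Figure D1:**
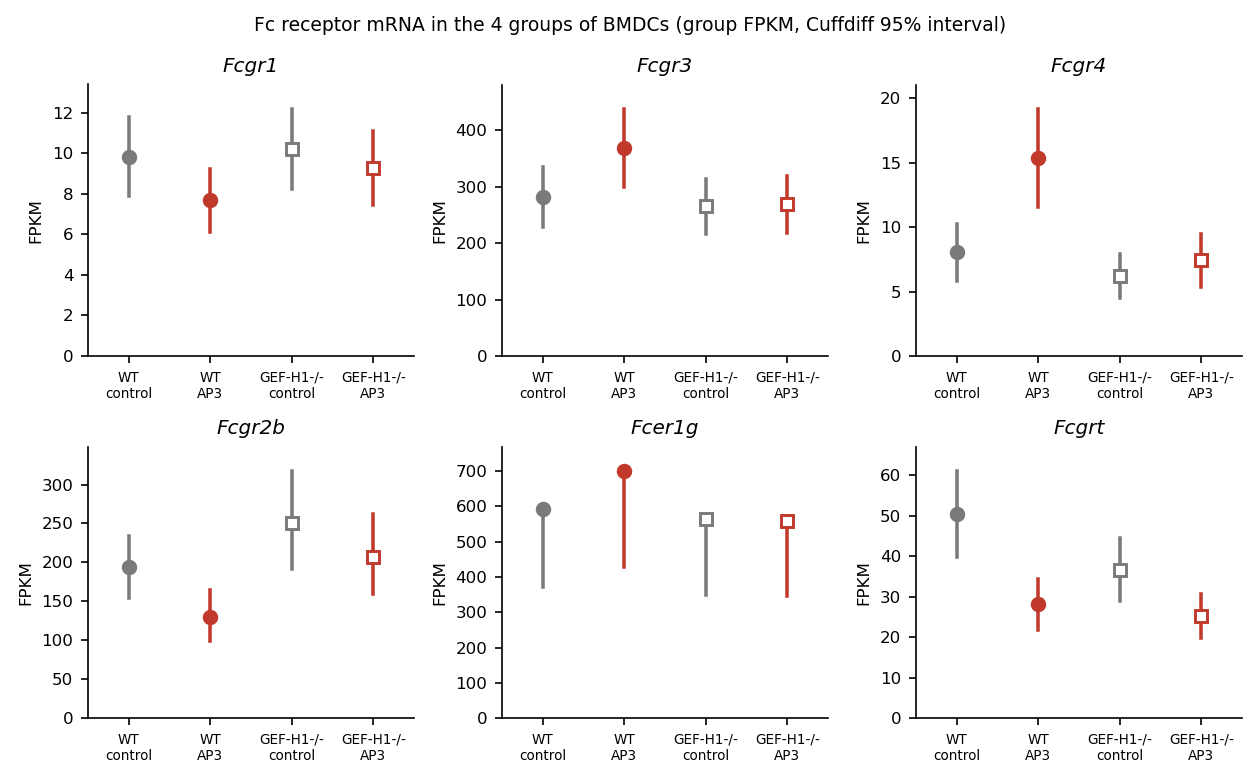
FPKM (linear axis from 0) of each of the 6 genes in the 4 groups, with WT as circles, GEF-H1-/- as squares, control in gray and ansamitocin-P3 (AP3) in red. Bars are Cuffdiff's 95% intervals of a group value made from 2 libraries; *Fcgr4* stood at 15.3 FPKM in treated WT DCs and at 6.22 to 8.05 in the other groups.

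With ansamitocin-P3, WT DCs had more *Fcgr4* and less *Fcgrt*, while the other 4 genes had overlapping intervals without and with the drug. In bulk RNA, fewer cells of a type and less RNA per cell cannot be told apart. Of the 6 genes, 1 was higher by more than 0.5 (*Fcgr4*), against 12.4% of all genes, and 2 were lower (*Fcgr2b* and *Fcgrt*), against 11%. None passed 1, which 4.94% of all genes did. With the groups set to a common sum of FPKM, 6.4% of all genes were higher and 24.3% lower by more than 0.5, and *Fcgrt*, at -1.09, passed 1. Intervals were apart and higher for 1 gene (*Fcgr4*, against 9.19% of all genes) and apart and lower for 1 (*Fcgrt*, against 7.58%). The median log2 change of the 6 was -0.04, beside 0.001 for all genes, with values from -0.82 to 0.85.

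*Fcgr4* encodes FcγRIV, a receptor of intermediate affinity that binds the mouse subclasses IgG2a and IgG2b. It was at 8.05 FPKM (interval 5.81 to 10.2) and 15.3 (11.5 to 19.1) in WT DCs without and with ansamitocin-P3, and 6.22 (4.47 to 7.94) and 7.44 (5.39 to 9.46) in GEF-H1-/- DCs. Treated WT DCs stood apart from the other 3 groups, which overlapped. It was 1.91-fold higher with the drug in WT DCs, a log2 change of 0.85 (0.16 to 1.56), and at this value *Fcgr4* was at percentile 94.8 of all genes. In GEF-H1-/- DCs the log2 change was 0.23 (-0.48 to 0.94).

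*Fcgr3* encodes FcγRIII, the low-affinity activating receptor for immune complexes. It was at 281 FPKM (228 to 334) without and 369 (299.5 to 437) with the drug in WT DCs, against 265 (216 to 314) and 269 (219 to 319) in GEF-H1-/- DCs. The treated WT value was the highest, and all 4 intervals overlapped. The log2 change with the drug was 0.39 (-0.16 to 0.94) in WT and 0.02 (-0.52 to 0.56) in GEF-H1-/- DCs. The WT value became 0.11 when the groups were set to a common sum of FPKM.

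*Fcgr1* encodes FcγRI, the high-affinity receptor that binds single IgG molecules. Its FPKM was 9.83 (7.87 to 11.8) and 7.68 (6.13 to 9.24) in WT DCs without and with ansamitocin-P3, and 10.2 (8.21 to 12.2) and 9.26 (7.44 to 11.1) in GEF-H1-/- DCs, with every pair of intervals overlapping. The log2 change with the drug was -0.32 (-0.84 to 0.21) in WT and -0.12 (-0.64 to 0.39) in GEF-H1-/- DCs. *Fcgr1* and *Fcgr4* thus lay on opposite sides of 0 in WT DCs, although both encode receptors that use the γ chain.

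*Fcer1g* encodes that γ chain, without which the activating receptors are not held at the cell surface. It was at 594 FPKM (373 to 597) without and 699 (430 to 689) with the drug in WT DCs, against 564 (350.4 to 561) and 559.8 (346 to 555) in GEF-H1-/- DCs. In 3 of the 4 groups the deposited FPKM lay above its own interval, so these bounds are a poor guide to its error. With the drug, its log2 ratio was 0.24 for WT cells and -0.01 for GEF-H1-/- cells, and the first became -0.04 when the groups were set to a common sum of FPKM. Relative to the summed FPKM of the 3 activating receptors, *Fcer1g* stood at 1.98 and 1.78 in WT DCs without and with ansamitocin-P3, and 2.004 and 1.96 in GEF-H1-/- DCs.

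*Fcgr2b*, the inhibitory receptor, ran the other way from *Fcgr3* and *Fcgr4*. It was at 194 FPKM (154 to 234) without and 129.6 (99.8 to 164) with the drug in WT DCs, against 251 (192 to 317) and 208 (159 to 262) in GEF-H1-/- DCs. The lowest value was in treated WT DCs, whose interval overlapped those of control WT and treated GEF-H1-/- DCs in a narrow range and lay below that of control GEF-H1-/- DCs. The value was 1.498-fold lower with the drug in WT DCs, a log2 change of -0.58 (-1.22 to 0.10), and the log2 change was -0.27 (-0.99 to 0.45) in GEF-H1-/- DCs.

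*Fcgrt*, the gene for FcRn, had the largest drop of the 6. It was at 50.4 FPKM (39.9 to 60.9) and 28.1 (21.8 to 34.3) in WT DCs without and with ansamitocin-P3, and 36.7 (29.0 to 44.4) and 25.2 (19.8 to 30.6) in GEF-H1-/- DCs. Both treated groups were below both control groups in value, and the intervals were apart between control and treated WT DCs. *Fcgrt* fell 1.80-fold in WT DCs, with a log2 change of -0.82 (-1.44 to -0.21), at percentile 2.94 of all genes. In GEF-H1-/- DCs the log2 change was -0.52 (-1.12 to 0.08), a 1.45-fold lower value with overlapping intervals, at percentile 1.71.

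In GEF-H1-/- DCs *Fcgrt* was therefore the 1 gene of the 6 that was lower by more than 0.5, against 1.94% of all genes, and 0 were higher, against 3.85%. None passed 1, which 1.08% of all genes did. For 0 of the 6 genes were the intervals of control and treated GEF-H1-/- DCs apart, against 2.75% of all genes apart and higher and 0.956% apart and lower. The median log2 change of the 6 was -0.07, beside -0.01 for all genes, with values from -0.52 to 0.23.

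**Figure D2:**
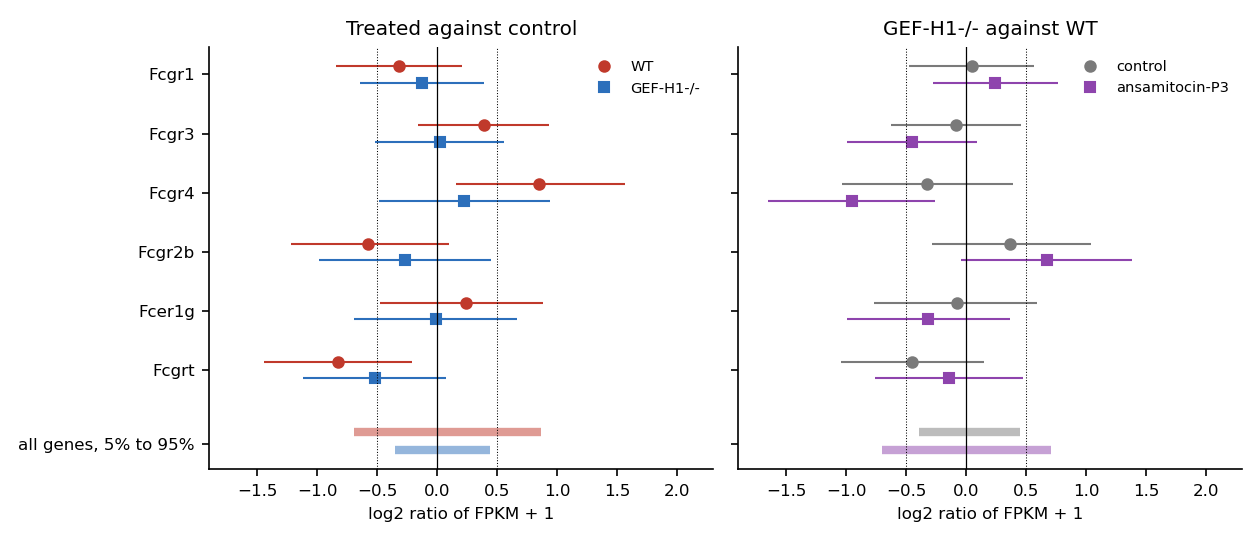
Log2 ratios of FPKM + 1 of the 6 genes, on the left with the drug in WT (red) and GEF-H1-/- DCs (blue), on the right for GEF-H1-/- against WT without (gray) and with the drug (purple). Thin lines run between the bounds that the Cuffdiff intervals allow, dotted lines mark 0.5 and -0.5, and thick bars span percentiles 5 to 95 of all 11397 genes; *Fcgr4* and *Fcgrt* at 0.85 and -0.82 in WT DCs are the values of the left panel with bounds on one side of 0.

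The difference between the drug's effect in WT and in GEF-H1-/- DCs was over 0.5 for 1 of the 6 genes, *Fcgr4* at 0.63, against 6.73% of all genes. For 0 genes was it under -0.5, against 5.24%, and for 0 was it past 1, against 1.9%. It was 0.37 for *Fcgr3*, 0.25 for *Fcer1g*, -0.20 for *Fcgr1*, -0.30 for *Fcgrt* and -0.31 for *Fcgr2b*. *Fcgr3* was at 0.13 when the groups were set to a common sum of FPKM. With the groups set to a common sum of FPKM, which moved the median of all genes by -0.20 in this difference, *Fcgr4* was at 0.40 and *Fcgr2b* and *Fcgrt* at -0.54 and -0.53, so that *Fcgr4* no longer passed the limit and both others did, where 2.9% of all genes were over 0.5 and 14.2% under -0.5. No interval was computed for this difference, and it shares its WT values with the drug effect in WT DCs given above.

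Without the drug, none of the 6 genes passed a limit between the genotypes. Of the 6, 0 were higher in GEF-H1-/- than in WT DCs by more than 0.5, against 4.19% of all genes, and 0 were lower, against 2.98%. None passed 1, against 1.88%. Intervals were apart for 0 genes, against 2.86% of all genes apart and higher and 1.88% apart and lower. The log2 differences of GEF-H1-/- against WT were 0.37 for *Fcgr2b*, 0.05 for *Fcgr1*, -0.07 for *Fcer1g*, -0.09 for *Fcgr3*, -0.33 for *Fcgr4* and -0.45 for *Fcgrt*.

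With the drug, *Fcgr4* was lower and *Fcgr2b* higher in GEF-H1-/- than in WT DCs. *Fcgr4* differed by -0.95 (-1.66 to -0.26), being 2.06-fold higher in treated WT DCs, with intervals apart. *Fcgr2b* differed by 0.68 (-0.04 to 1.39), being 1.601-fold higher in value in treated GEF-H1-/- DCs, with overlapping intervals. Of the 6 genes, 1 was thus lower by more than 0.5, against 9.75% of all genes, and 1 was higher, against 9.6%. None passed 1, against 4.06%, although *Fcgr4* was at -1.03 when 0.1 FPKM rather than 1 was added before the ratio. With a common sum of FPKM, 20.1% of all genes were higher and 4.54% lower by more than 0.5. Intervals were apart and lower for 1 gene (*Fcgr4*), against 6.73% of all genes, and apart and higher for 0, against 7.02%. *Fcgr3* differed by -0.45 (-0.996 to 0.09), *Fcer1g* by -0.32, *Fcgr1* by 0.24 and *Fcgrt* by -0.15. *Fcgr3* was at -0.19 and *Fcer1g* at -0.06 with a common sum of FPKM. These values share the treated WT group with the drug's effect in WT DCs and are not a second observation of it.

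Markers of other cells differed between the groups as well. Of 9 markers of DCs, all passed the filter in these BMDCs, and their summed FPKM was 4717 without and 6332 with the drug in WT DCs, against 3979 and 4460.1 in GEF-H1-/- DCs. Most of that sum was *Cd74*. With the drug in WT DCs 2 of the 9 were over 0.5 and 4 under -0.5, against 12.4% and 11% of all genes. Their median was -0.02. Markers of other myeloid cells were present too. Neutrophil markers, 7 of the 8 listed being in the table, summed to 21866 FPKM and 26059 in WT DCs without and with ansamitocin-P3, and 11959 and 12245 in GEF-H1-/- DCs. Most of it was *S100a8*, whose FPKM lay outside its own interval in all 4 groups. Between the control groups 4 of the 7 were under -0.5 and 2 over 0.5 in GEF-H1-/- DCs, against 2.98% and 4.19% of all genes. The higher ones were *Mpo* and *Elane*. The interval of *Elane* ran from 0 to 93.1 FPKM in control WT and from 0 to 152 in control GEF-H1-/- DCs, so its value is very uncertain. Macrophage markers, 7 of 8 passing the filter, summed to 246, 186, 356 and 324 FPKM in the same order, and the 8 markers of basophils and mast cells to 199, 203, 385 and 369. Of the latter, 7 of 8 were above WT by more than 0.5 in untreated GEF-H1-/- DCs, against 4.19% of all genes. With the drug in WT DCs 5 of the 7 macrophage markers were under -0.5, against 11% of all genes. B cell markers summed to between 4.11 and 7.64 FPKM. NK and T cell markers summed to 92.2 FPKM without and 108 with the drug in WT DCs, against 38.0 and 34.5 in GEF-H1-/- DCs. Most of this was *Gzma*, at 84.4, 100, 32.4 and 29.0 FPKM in the same order. None of the markers found in the table was at 0 in all groups. *Fcgr2b* and *Fcgr3* are transcribed in several of these cell types. The part of these cells in the differences between groups was not tested for any receptor gene described here, *Fcgr4*, *Fcer1g* and *Fcgrt* included.

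The ratio of activating to inhibitory IgG receptors was highest in treated WT DCs. The summed FPKM of *Fcgr1*, *Fcgr3* and *Fcgr4* over that of *Fcgr2b* was 1.54 (1.03 to 2.32, from the interval bounds) without and 3.02 (1.93 to 4.67) with the drug in WT DCs, against 1.12 (0.722 to 1.74) and 1.38 (0.883 to 2.13) in GEF-H1-/- DCs. The range of treated WT DCs overlapped those of control WT and treated GEF-H1-/- DCs and was apart from that of control GEF-H1-/- DCs. The ratio was 1.96 times the control value with the drug in WT and 1.23 times in GEF-H1-/- DCs, and among treated cells it was 2.20 times as high in WT as in GEF-H1-/- DCs. A ratio within a group is not moved by rescaling of that group.

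Most of the activating sum was *Fcgr3*. It made up 57.0% of the FPKM of the 4 IgG receptors in control and 70.7% in treated WT DCs, against 49.8% and 54.5% in GEF-H1-/- DCs. *Fcgr2b* made up 39.3%, 24.9%, 47.1% and 42.1% in the same order, while *Fcgr4* made up 1.63%, 2.94%, 1.17% and 1.51%. The 4 genes together were at 493 FPKM and 521 in WT DCs without and with ansamitocin-P3, and 532 and 493 in GEF-H1-/- DCs, so that the total differed less than its makeup. With *Fcgr3* left out, the ratio was 0.0921 without and 0.178 with the drug in WT DCs, against 0.0655 and 0.0805 in GEF-H1-/- DCs. *Fcgr2b* stays in this ratio, so leaving out *Fcgr3* does not remove the uncertainty from their shared sequence.

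**Figure D3:**
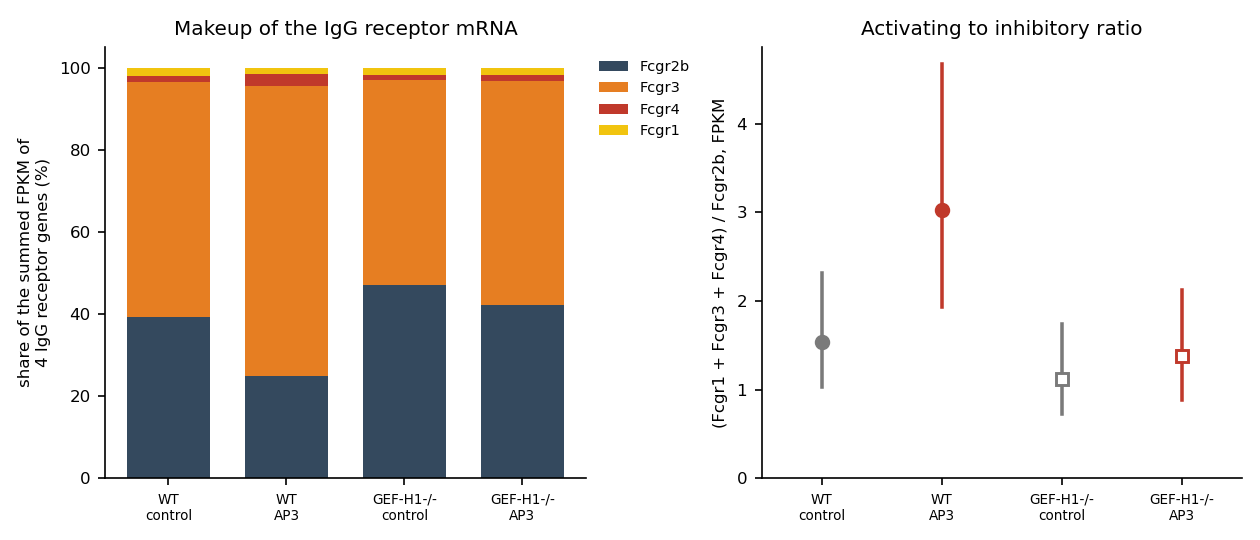
Left, stacked bars of the share (%) of each of 4 IgG receptor genes in their summed FPKM, for the 4 groups. Right, summed FPKM of *Fcgr1*, *Fcgr3* and *Fcgr4* over that of *Fcgr2b*, with bars for the range allowed by the Cuffdiff intervals; treated WT DCs were highest at 3.02 and control GEF-H1-/- DCs lowest at 1.12.

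A list of 5 genes held partners of these receptors, other adaptors and a B cell receptor subunit. With the drug in WT DCs 4 of the 5 were above 0, and *Cd79b* was below. *B2m*, which encodes the β2-microglobulin partner of FcRn, was at 3515 FPKM and 4052 in WT DCs without and with ansamitocin-P3, and 3057 and 2999 in GEF-H1-/- DCs, a log2 change of 0.21 with the drug in WT DCs, where *Fcgrt* was lower. *Tyrobp*, for the adaptor DAP12, was at 605, 762, 815 and 831 FPKM in the same order, and *Hcst*, for DAP10, at 18.9, 22.8, 26.2 and 27.1. *Cd247*, for the ζ chain that can stand in for the γ chain in some cells, was at 2.04, 2.29, 1.33 and 1.49 FPKM. *Cd79b*, a subunit of the B cell receptor, was at 9.76, 5.48, 5.05 and 3.40 FPKM and was the 1 gene of these 5 past 0.5, at -0.73 with the drug in WT and -0.83 between the control groups.

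Some other receptors that use the γ chain rose in WT DCs. Of 12 listed, 9 passed the filter. With the drug in WT DCs 4 of the 9 were over 0.5 and 0 under -0.5, against 12.4% and 11% of all genes. Their median was 0.47 beside 0.001 for all genes, and 3 of the 4 were past 1. In GEF-H1-/- DCs 1 of the 9 was over 0.5, against 3.85% of all genes, and the median was 0.25, beside -0.01. *Clec4d*, the C-type lectin MCL, was at 7.72 FPKM without and 79.5 with the drug in WT DCs, against 17.7 and 23.9 in GEF-H1-/- DCs. *Clec4e*, the receptor Mincle for mycobacterial cord factor, was at 4.49, 36.9, 6.68 and 11.5 FPKM, and *Clec4n*, the fungal receptor Dectin-2, at 303, 708, 268 and 372. These lectins were highest in treated WT DCs, with intervals apart from control WT DCs. *Fcgr3*, *Fcgr4* and *Fcer1g* also had their highest values there, but only *Fcgr4* of these had intervals apart from control WT DCs. The changes of *Fcgr3* and *Fcer1g* were 0.11 and -0.04 when the groups were set to a common sum of FPKM. *Pira1* was at 3.26, 5.77, 7.91 and 8.64 FPKM, *Lilra6* at 13.0, 18.3, 31.8 and 38.1, and *Pira7* at 0.98, 1.20, 2.15 and 2.96, and these paired immunoglobulin-like receptors differed by 1.06, 1.23 and 0.67 on the log2 scale between the untreated genotypes, with GEF-H1-/- DCs above WT. Between the untreated genotypes the intervals were apart for *Lilra6* and overlapped for *Pira1* and *Pira7*. Those of *Pira1* also overlapped between control and treated WT DCs. These 3 genes are near copies of each other, so that their values are uncertain.

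Downstream of the ITAM, transcripts moved in both directions. All 30 listed genes passed the filter. With the drug in WT DCs 7 were over 0.5 and 2 under -0.5, against 12.4% and 11% of all genes, with a median of 0.07. In GEF-H1-/- DCs 1 was over 0.5 and 0 under -0.5, against 3.85% and 1.94% of all genes. The median there was 0.0004. The largest rises in WT DCs were in *Src*, a tyrosine kinase (log2 change 1.20), *Malt1* and *Bcl10*, which join CARD9 in the complex that leads from Syk to NF-κB (1.20 and 0.99), *Gab2*, a docking protein (0.76), and *Fyn*, a Src family kinase (0.69). The corresponding values in GEF-H1-/- DCs were 0.49, 0.71, 0.37, 0.34 and 0.30. *Blnk*, an adaptor of Syk, fell by 0.92 on the log2 scale in WT DCs and was at -0.05 in GEF-H1-/- DCs. *Syk* itself, named after its values were seen, was at 53.1 FPKM and 63.6 in WT DCs without and with ansamitocin-P3, and 56.6 and 56.4 in GEF-H1-/- DCs.

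Genes of inhibitory signaling were counted in the same way. All 12 listed passed the filter. With the drug in WT DCs 0 were over 0.5 and 2 under -0.5, against 12.4% and 11% of all genes, with a median of -0.10. In GEF-H1-/- DCs 0 passed 0.5 in either direction, against 3.85% of all genes higher and 1.94% lower. The median there was -0.09. *Ptpn6*, for the phosphatase SHP-1, was at 169 FPKM without and 101 with the drug in WT DCs, against 148 and 109 in GEF-H1-/- DCs. *Ptpn22*, another phosphatase acting on Src kinases, was at 9.04, 5.56, 7.69 and 7.61 FPKM. *Inpp5d*, for SHIP-1, the lipid phosphatase that the ITIM of FcγRIIB recruits, was named after its values were seen and stood at 42.8, 30.8, 39.5 and 32.1 FPKM, which is -0.46 with the drug in WT and -0.29 in GEF-H1-/- DCs. In WT DCs *Inpp5d* was lower in value with the drug, as *Fcgr2b* was, but *Inpp5d* did not pass 0.5. The intervals of both genes overlapped without and with the drug. Of the 12 listed genes, 3 were above 0 there, *Dok3* (0.28), *Ptpn11* (0.20) and *Inppl1* (0.16), and the rest were below.

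Fc receptors outside the 6 genes were mostly low, and none of those that passed the filter rose with the drug. Of 12 listed, 7 passed the filter. With the drug in WT DCs 0 were over 0.5 and 4 under -0.5, against 12.4% and 11% of all genes, with a median of -0.53. In GEF-H1-/- DCs 1 was under -0.5, against 1.94% of all genes, with a median of -0.24. *Fcer1a*, for the IgE-binding chain that joins the γ chain in FcεRI, was at 6.25 FPKM and 4.62 in WT DCs without and with ansamitocin-P3, and 33.5 and 32.3 in GEF-H1-/- DCs. *Ms4a2*, for the β chain of FcεRI, was at 5.97, 3.84, 12.7 and 12.1 FPKM. Both are also markers of basophils and mast cells, whose summed markers given above were higher in the GEF-H1-/- groups, and the part of such cells in this difference was not tested. *Fcrls* was at 27.6, 15.3, 59.1 and 53.8 FPKM, *Fcrla* at 1.73, 0.60, 1.18 and 0.82, and *Fcrlb* at 0.74, 0.33, 1.63 and 1.11. *Trim21*, an antibody receptor of the cytosol, was at 7.68, 3.42, 6.95 and 4.52 FPKM, and was under -0.5 with the drug in both genotypes, at -0.97 and -0.53. Between the control groups 4 of the 7 were over 0.5 and 0 under -0.5, against 4.19% and 2.98% of all genes. Their median was 0.60 beside -0.01 for all genes.

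**Figure D4:**
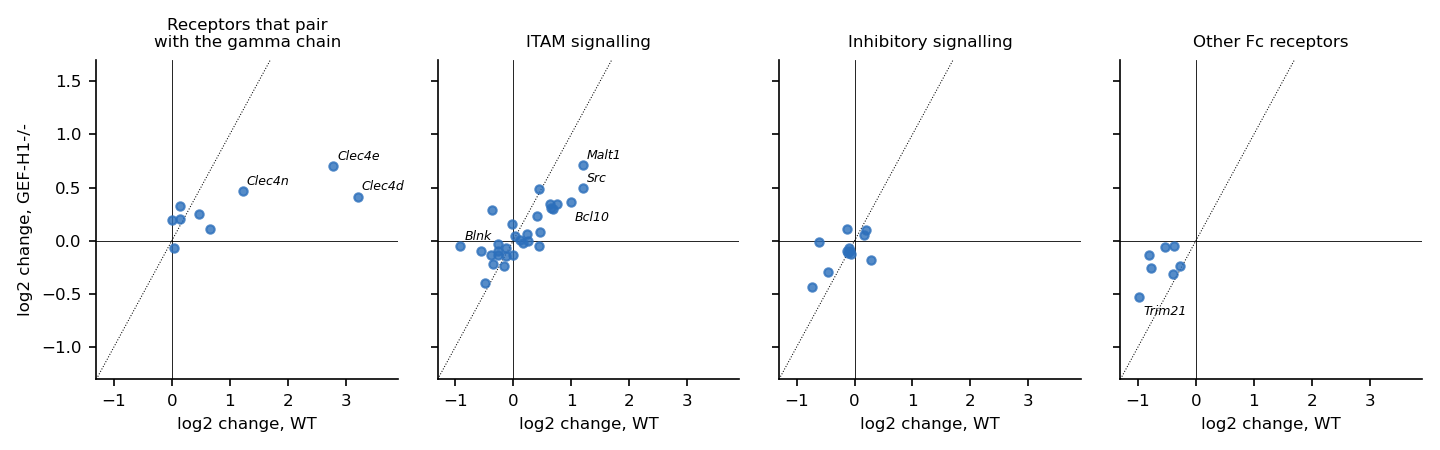
Log2 ratios of FPKM + 1 with ansamitocin-P3 in WT (x axis) and GEF-H1-/- DCs (y axis) for genes that passed the filter in 4 lists, 1 point a gene, with a dotted line where both are equal. *Clec4d* at 3.21 in WT and 0.42 in GEF-H1-/- DCs lies farthest from the line, and the other Fc receptors lie at or below 0 in both genotypes.

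Along chromosome 1, genes between and beside the Fc receptor genes did not share one direction. Within 100 kb of the span from *Fcgr2b* to *Fcer1g* the table holds 23 genes, 4 of them receptor genes described here, and of the others 14 passed the filter. With the drug in WT DCs these 14 had a median of -0.10. Of them, 1 was over 0.5 and 2 were under -0.5, against 12.4% and 11% of all genes. *B4galt3*, a galactosyltransferase, was at 0.81, *Fcrla* at -0.77 and *Dusp12*, a phosphatase, at -0.59, beside -0.58 for *Fcgr2b* and 0.85 and 0.39 for *Fcgr4* and *Fcgr3*. Others were *Atf6* (0.32), *Dedd* (0.28), *Sdhc* (0.06), *Ufc1* (0.01), *Ppox* (-0.08), *1700009P17Rik* (-0.12), *Usp21* (-0.17), *Nit1* (-0.22), *Tomm40l* (-0.27) and *Fcrlb* (-0.39). In GEF-H1-/- DCs 0 of the 14 passed 0.5 in either direction, against 3.85% of all genes higher and 1.94% lower. The range was -0.31 to 0.39. *Pcp4l1*, *Nr1i3*, *Apoa2* and *Adamts4* were among those that did not pass the filter. *Fcgr4* and *Fcgr3*, beside each other on opposite strands, were both above 0 in WT DCs, and *Fcgr2b* next to *Fcgr4* was below 0, as were *Fcrla* and *Fcrlb* beyond it.

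**Figure D5:**
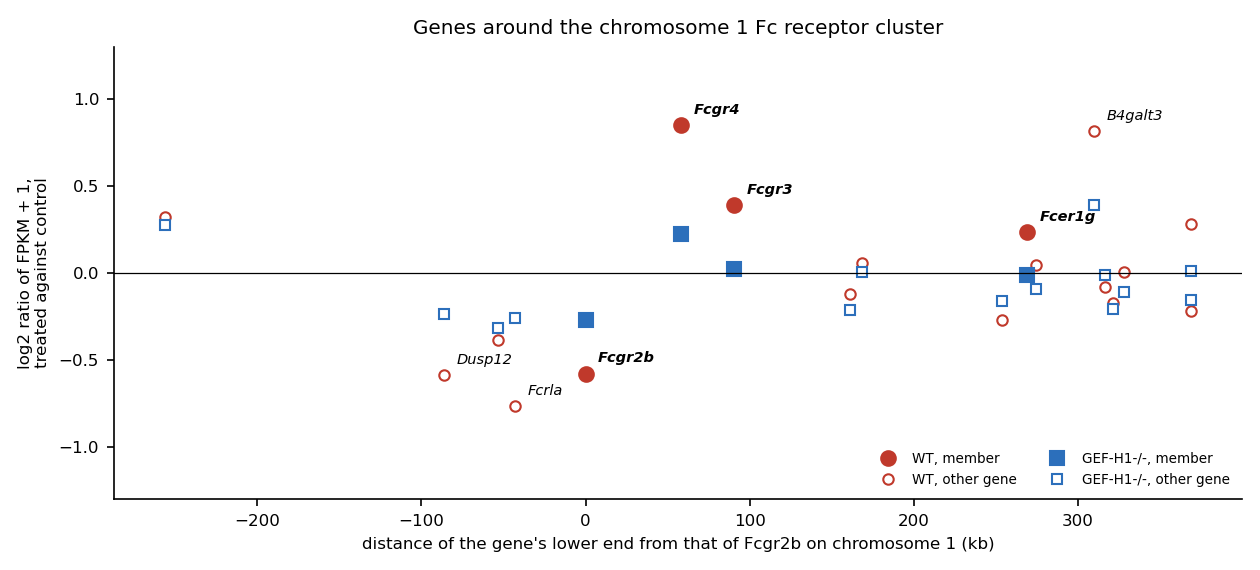
Log2 ratio of FPKM + 1 with ansamitocin-P3 for genes around the chromosome 1 cluster, plotted by distance (kb) of each gene's lower end from that of *Fcgr2b*, in WT (red circles) and GEF-H1-/- DCs (blue squares). Filled symbols are *Fcgr2b*, *Fcgr4*, *Fcgr3* and *Fcer1g*, open symbols the 14 other genes that passed the filter, and in WT DCs *Fcgr4* at 0.85 and *Fcrla* at -0.77 are the highest and the lowest.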

How the data were processed

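RNA of BMDCs in 8 libraries (2 per group) was sequenced by the authors as 35-base paired ends from stranded mRNA libraries. The authors computed FPKM with Cuffdiff 1.05 and deposited 1 FPKM per gene and group, with a lower and upper bound of a 95% interval and a status, on mm10. The aligner and annotation behind this table are not given in the sources used here. WT columns carry no genotype in their names and were assigned by elimination. All value columns were used (0 columns of single samples were left out), and 107 genes without an OK status were left out.

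The log2 ratios of FPKM + 1, interval overlaps and sums were computed with Python 3.11.15, numpy 2.4.6 and pandas 2.3.3, and figures with matplotlib 3.10.9. The computation was tested on simulated data. Promoter windows came from RefSeq (GRCm38.p6) and transcripts from GENCODE. The 6 genes and all gene lists were chosen with earlier results of these data known, so they support nothing by themselves. From each list, genes past 0.5 with the drug in WT DCs or between the control groups were named, at most the 6 largest, and lists of 5 genes whole; older symbols were matched through RefSeq synonyms. Alternatives were pseudocounts of 0.1 and 5 FPKM, no filter or a filter of 5 FPKM, and rescaling by the median ratio or the sum of FPKM. Libraries of a group are not stated to come from separate animals. Some genes near the chromosome 1 cluster are not reported by name here.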

Additional observations from a re-analysis of the deposited data

How the results depend on the processing

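No paired analysis was possible because the deposited table holds 1 value per gene and group and no column for a single library, and leaving out a replicate could not be done for the same reason. The number of reads per library is not kept in FPKM. The median Cuffdiff interval spanned 45.3% of the FPKM in control WT DCs, which limits how small a change can be seen. A filter does not alter the value of a gene that is kept. Over pseudocounts and rescalings, 120 values of the 6 genes were recomputed, of which 6 crossed 0.5 and 3 changed sign. All 3 did so with the groups set to a common sum of FPKM, and none was above 0.24 in size. That rescaling moved the median of all genes by -0.24 with the drug in WT DCs, by 0.23 between treated genotypes and by -0.20 in the difference between drug effects, and put *Fcgr1* at -0.56 in WT DCs and *Fcer1g* at -0.04, while *Fcgr3* in GEF-H1-/- DCs went from 0.02 to -0.02 and *Fcgrt* between treated genotypes from -0.15 to 0.10. With a pseudocount of 5 FPKM *Fcgrt* in GEF-H1-/- DCs was at -0.46 and the difference of effects of *Fcgr4* at 0.49.

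Past 1, *Fcgrt* in WT DCs was at -1.09 with a common sum of FPKM and *Fcgr4* between treated genotypes at -1.03 with a pseudocount of 0.1 FPKM. With a common sum of FPKM the balance of all genes past 1 turned, from 417 higher and 146 lower to 259 and 406 with the drug in WT DCs, from 228 and 235 to 412 and 124 between treated genotypes, and from 155 and 61 to 94 and 113 in the difference between drug effects.

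The number of genes past 1 among all genes depended on the pseudocount. It was 563 with the drug in WT DCs, and 956 with a pseudocount of 0.1 FPKM and 318 with 5 FPKM. For the drug in GEF-H1-/- DCs it was 123, with 212 and 77. Between the control groups it was 214, with 372 and 101. Between the treated groups it was 463, with 801 and 206. For the difference between drug effects it was 216, with 387 and 123. The ratio of activating receptors to *Fcgr2b* without *Fcgr3* was 0.0921 without and 0.178 with the drug in WT DCs, against 0.0655 and 0.0805 in GEF-H1-/- DCs.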

Other observations

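Over the 4 groups, the patterns of *Fcgr4* and *Fcgrt* had few close matches and those of *Fcer1g* and *Fcgr1* had many. Likeness was the root mean square distance between log2(FPKM + 1) profiles, each centered on its mean, among 7724 genes with at least 5 FPKM in every group. It rests on 4 group values and is a description with no test. Most genes changed little: with the drug in WT DCs, percentiles 25 and 75 of all genes were -0.26 and 0.26. The number of close genes therefore depends largely on how far a gene moved, and does not show that its pattern is unusual otherwise. Within a distance of 0.05 there were 3 genes for *Fcgrt*, 4 for *Fcgr4*, 15 for *Fcgr2b*, 164 for *Fcgr3*, 251 for *Fcgr1* and 377 for *Fcer1g*. The nearest to *Fcgr4* were *Atg2a* (distance 0.0174; 9.18 FPKM without and 18.0 with the drug in WT DCs, against 7.29 and 8.63 in GEF-H1-/- DCs), *Nab2* (0.0365) and *Rras* (0.0371). The nearest to *Fcgrt* were *Etv5* (0.0322; 11.7, 6.01, 8.23 and 5.12 FPKM in the same order), *Igsf6* (0.0472) and *B3gnt7* (0.0499). For *Fcgr2b* they were *Zmynd19* (0.0061), *Adsl* (0.0122) and *Zfp932* (0.0225). For *Fcgr3* they were *Tmem127* (0.0073), *Sqrdl* (0.0117) and *Cnot4* (0.0143). For *Fcgr1* they were *B4galnt1* (0.0051), *Uba2* (0.0095) and *Rfc5* (0.0118), and for *Fcer1g* *Eef1b2* (0.0036), *Zc3hc1* (0.0053) and *Ywhab* (0.0071). None of the 6 genes was among the 3 nearest genes of another.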
